A study of Mus musculus with 6 samples.

Results

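Group 2 innate lymphoid cells (ILC2s), lymphocytes of barrier tissues that release type 2 cytokines, carry receptors for signals from nerves. The genes described here encode such receptors and signals in a mouse ILC2 line: the neuromedin U receptor Nmur1, the vasoactive intestinal peptide (VIP) receptors Vipr1 and Vipr2, the calcitonin gene-related peptide (CGRP) receptor parts Calcrl and Ramp1, the opioid peptide precursor Penk, and the acetylcholine-forming enzyme Chat. They were chosen by symbol from knowledge of ILC2 biology, with earlier results of these data known. Of the 8 genes so listed, 7 were measured and named among 23185 named genes. The other, Calca, was not paired with a probe set by the annotation table used for names, and its values are not analysed here. No gene for an adrenergic receptor is among the 8. Neuromedin U from nerves is known to activate ILC2s through NMUR1, a receptor that signals through the Gq protein and calcium. VIP is also known as an activating signal, whereas CGRP and noradrenaline are known mainly for restraining ILC2 growth. CGRP and noradrenaline act through receptors that raise cyclic AMP (cAMP), to which the VIP receptors couple as well. ILC2s themselves have been described as sources of enkephalin, made from the Penk product, and of acetylcholine, made by the Chat product.

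The cells were an ILC2 line from C57BL/6J mice grown in 10 ng/ml each of IL-2 and IL-33. They were transduced with lentivirus carrying CRISPR, GFP and a guide RNA. The 2 groups were a Myc knockout, with a guide against Myc, and a control with a guide without a target. GFP-positive cells were sorted 6 days after transduction, and total RNA of 3 samples per group was hybridised to Affymetrix arrays. The cells are a cultured line selected by GFP and not by loss of MYC, and the labels do not say in what share of them Myc was cut. The labels do not say whether the 3 samples of a group came from separate cultures, so p-values measure only how these samples vary, possibly for technical reasons.

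All values are log2 values from robust multiarray averaging (RMA), which sets arrays to a shared distribution; array medians lay between 3.27 and 3.34 and lower quartiles between 2.04 and 2.13. Upper quartiles were 5.69 to 5.74 in the arrays labelled Myc knockout and 5.76 to 5.78 in control arrays. Myc itself stood at 9.55, 9.79 and 9.73 in the arrays labelled Myc knockout, against 9.27, 9.33 and 9.39 in control arrays, so its mRNA was not lower under that label, and groups keep their labelled names here. In limma, 59 genes were higher and 46 lower in the arrays labelled Myc knockout at a Benjamini-Hochberg adjusted p under 0.05. Of 16 measured ILC2 markers, 13 lay at or above the median of the array medians, among them Gata3, Il7r, Il2ra and Il13, and Il17rb, Ptgdr2 and Thy1 lay below it. In such bulk samples, a different share of cells that use a gene and a different amount of RNA per cell cannot be told apart.

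None of the 7 genes passed the threshold over all genes in either direction, where the background was 0.254% of genes higher and 0.198% lower. Calcrl came closest, at an adjusted p of 0.052 in limma, with Penk second at 0.132. At an unadjusted p under 0.05, 2 of the 7 were higher and 0 lower, against 6.97% and 7.91% of all genes. The groups did not overlap for the same 2, both higher, against 9.25% of all genes higher and 10.6% lower without overlap. The median log2 difference, arrays labelled Myc knockout minus control, was 0.011 over the 7 genes and 0.0077 over all genes. The measured level put the 7 genes in 2 sets: Penk, Calcrl, Nmur1 and Vipr2 lay at or above the median of the array medians, and Vipr1, Ramp1 and Chat below it, where a value says little about the RNA.

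**Figure D1:**
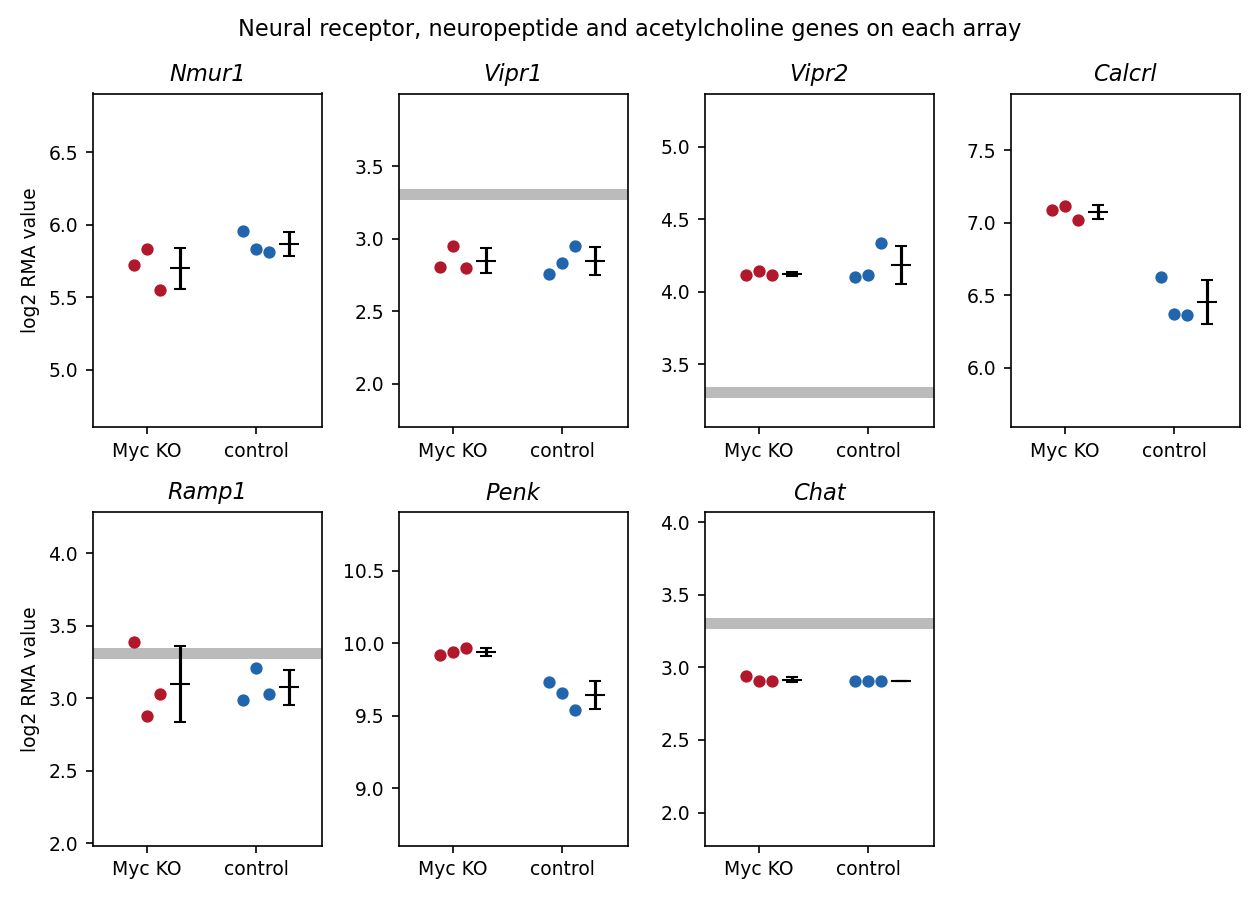
Log2 RMA value (vertical axis) of 7 genes on each of 3 arrays labelled Myc knockout (red) and 3 control arrays (blue), with the mean and SD of each group in black; the grey band spans the 6 array medians, 3.27 to 3.34, and every panel covers the same height. Calcrl and Penk are the genes whose groups do not overlap, while the points of Chat sit almost on a single value.

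Calcrl encodes the receptor chain that binds CGRP or adrenomedullin according to which RAMP protein accompanies it. Its log2 value was 7.09, 7.11 and 7.02 in the arrays labelled Myc knockout, against 6.63, 6.37 and 6.36 in control arrays. Every array labelled Myc knockout lay above every control array, and the gap between the groups was wider than the range within either. The means were 7.07 ± 0.051 in the arrays labelled Myc knockout and 6.45 ± 0.15 in control arrays (SD, n = 3 each), a 1.54-fold difference with a 95% confidence interval of 1.33 to 1.78. Limma gave an unadjusted p of 0.000267 and an adjusted p of 0.052, and the two-sided p of an exact permutation of the arrays was 0.1, the floor for groups of 3. Only 0.979% of genes, 227 in number, differed between groups by as much in either direction. The adjusted p was under the threshold with a prior variance that follows intensity (0.0221), after cyclic loess (0.0362) and when dim genes were left out (0.0158 and 0.0349). It was not under the other 11 alternatives, and reached 0.199 without control replicate 3.

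The sequence before the annotated start of Calcrl is shown because this gene had the largest difference of the 7, and that of Chat because it is the one of these windows with the E-box letters that MYC and its partner MAX are known to bind. Both are 250 bases on the minus strand of RefSeq's mouse build GRCm38.p6, read 5′ to 3′ toward the start, at chr2:84425267-84425516 for Calcrl and chr14:32465910-32466159 for Chat. Capitals mark the E-box CACGTG and the letters TGACG or, on the opposite strand, CGTCA, which form the core of the cAMP response element.
Calcrl: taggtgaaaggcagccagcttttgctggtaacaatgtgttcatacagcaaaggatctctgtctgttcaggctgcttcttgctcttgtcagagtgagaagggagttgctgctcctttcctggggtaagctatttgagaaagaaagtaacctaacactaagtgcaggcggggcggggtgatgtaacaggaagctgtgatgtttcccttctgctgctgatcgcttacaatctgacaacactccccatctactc
Chat: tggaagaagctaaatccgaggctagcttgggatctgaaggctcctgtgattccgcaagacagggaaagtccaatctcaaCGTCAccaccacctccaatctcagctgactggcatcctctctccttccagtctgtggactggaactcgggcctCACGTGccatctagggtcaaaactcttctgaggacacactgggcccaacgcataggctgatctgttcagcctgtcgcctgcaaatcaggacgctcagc
Neither the E-box nor the core letters occur in the Calcrl window, which says only that these letters are not in these bases. The Chat window holds 1 E-box that begins 98 bases before the start and 1 core that begins 171 bases before it. The table gave 7 windows for 6 of the 7 genes, Nmur1 having 2 starts; the only other match was 1 core in the Vipr1 window, 13 bases before its start, and the full element TGACGTCA was in none. Of 32851 windows of this length in the table, 6.02% held the E-box, 17.8% the core and 1.55% the full element, which contains the core, on either strand.

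Ramp1 encodes the accessory protein that turns the Calcrl product into a CGRP receptor. It read 3.39, 2.88 and 3.03 in the arrays labelled Myc knockout, against 2.99, 3.21 and 3.03 in control arrays. The groups overlapped around a mean below all 6 array medians, and the log2 difference was 0.024 ± 0.14 (SE), with a 95% interval of -0.31 to 0.36. Ramp2 and Ramp3, whose products turn the same chain into adrenomedullin receptors, differed by -0.021 ± 0.13 and -0.0033 ± 0.15. Ramp3 averaged 3.95 ± 0.32 in the arrays labelled Myc knockout and 3.95 ± 0.051 in control arrays, and is the RAMP gene above the array medians here. The ligand genes Calcb and Adm, for a second CGRP and for adrenomedullin, lay below the array medians on all 6 arrays. The higher Calcrl value thus stood beside RAMP genes without a measured difference, although intervals this wide do not show that they were equal.

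**Figure D2:**
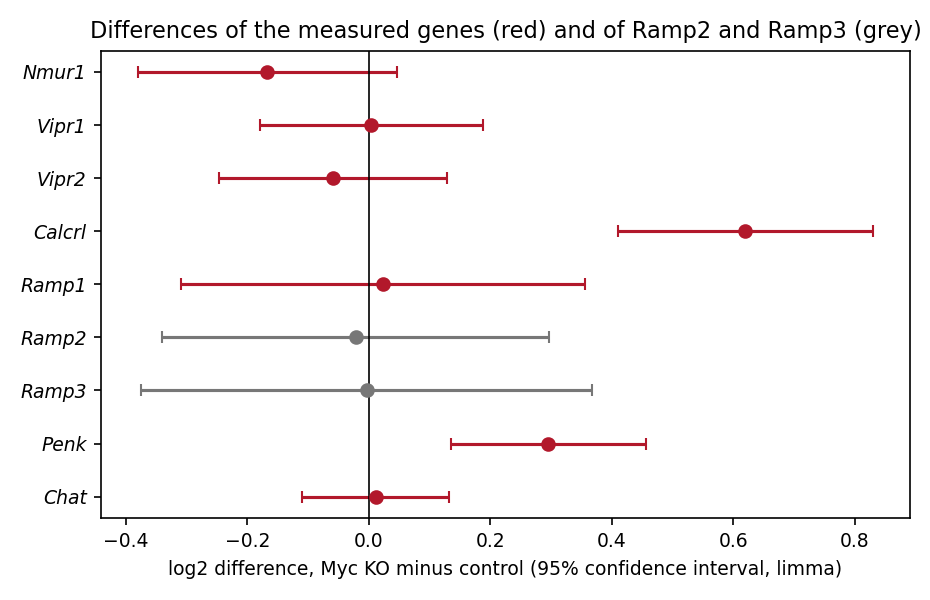
Log2 difference (horizontal axis), arrays labelled Myc knockout minus control, of 7 neural receptor and neuropeptide genes (red) and of Ramp2 and Ramp3 (grey), with limma's 95% confidence intervals, 3 arrays per group. The intervals of Calcrl (0.41 to 0.83) and Penk (0.13 to 0.46) lie above 0, and the other 7 include 0.

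Nmur1 encodes the receptor through which neuromedin U stimulates ILC2s. Its log2 value was 5.72, 5.83 and 5.55 in the arrays labelled Myc knockout, against 5.96, 5.83 and 5.81 in control arrays. The groups overlapped, since the highest array labelled Myc knockout lay above the lowest control array. The means were 5.70 ± 0.14 in the arrays labelled Myc knockout and 5.87 ± 0.080 in control arrays (SD, n = 3 each), and the ratio of 0.891 had a 95% interval of 0.769 to 1.03. The difference did not pass (limma's adjusted p = 0.428), and 27.9% of genes differed by as much. With each array left out in turn the log2 difference lay between -0.23 and -0.091, against -0.17 with all arrays. The second receptor gene Nmur2 and the ligand genes Nmu and Nms lay below the array medians on all 6 arrays. Gnaq, the gene of the Gq alpha subunit, stood at 7.18 ± 0.097 in the arrays labelled Myc knockout and 7.19 ± 0.044 in control arrays.

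Vipr2 encodes one of the VIP receptors, which couple to cAMP. It read 4.11, 4.14 and 4.11 in the arrays labelled Myc knockout, against 4.10, 4.11 and 4.34 in control arrays. Control replicate 3 stood above the other 5 arrays, which lay within 4.10 to 4.14. Of those 5, 3 held the identical deposited value of 4.11462. The ratio of the group means was 0.960, with a 95% interval of 0.843 to 1.09 (limma's adjusted p = 0.754). Vipr1, the other VIP receptor gene, read 2.81, 2.95 and 2.79 in the arrays labelled Myc knockout, against 2.75, 2.83 and 2.95 in control arrays, all below the array medians. Its log2 difference was 0.0043 ± 0.077 (SE; limma's adjusted p = 0.986). The ligand gene Vip and the gene Adcyap1r1, for a receptor of the related peptide PACAP, were below the array medians on all 6 arrays.

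Penk encodes proenkephalin, which proteases cut into the enkephalins. Its log2 value was 9.92, 9.94 and 9.97 in the arrays labelled Myc knockout, against 9.73, 9.66 and 9.54 in control arrays. No control array reached the lowest array labelled Myc knockout, and the control arrays were more spread. The means were 9.94 ± 0.025 in the arrays labelled Myc knockout and 9.64 ± 0.096 in control arrays (SD, n = 3 each), a 1.23-fold difference with a 95% interval of 1.10 to 1.37. Limma gave an unadjusted p of 0.00364 and an adjusted p of 0.132, and 9.11% of genes differed by as much. The adjusted p was under the threshold in 1 of 15 alternatives, a prior variance that follows intensity (0.0443), and reached 0.282 in the others. The opioid receptor genes Oprm1, for the mu receptor, and Oprd1, for the delta receptor, averaged 2.29 ± 0.12 and 3.38 ± 0.016 in the arrays labelled Myc knockout, against 2.40 ± 0.091 and 3.33 ± 0.16 in control arrays, and the opioid precursor genes Pomc, Pdyn and Pnoc had means below the array medians.

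**Figure D3:**
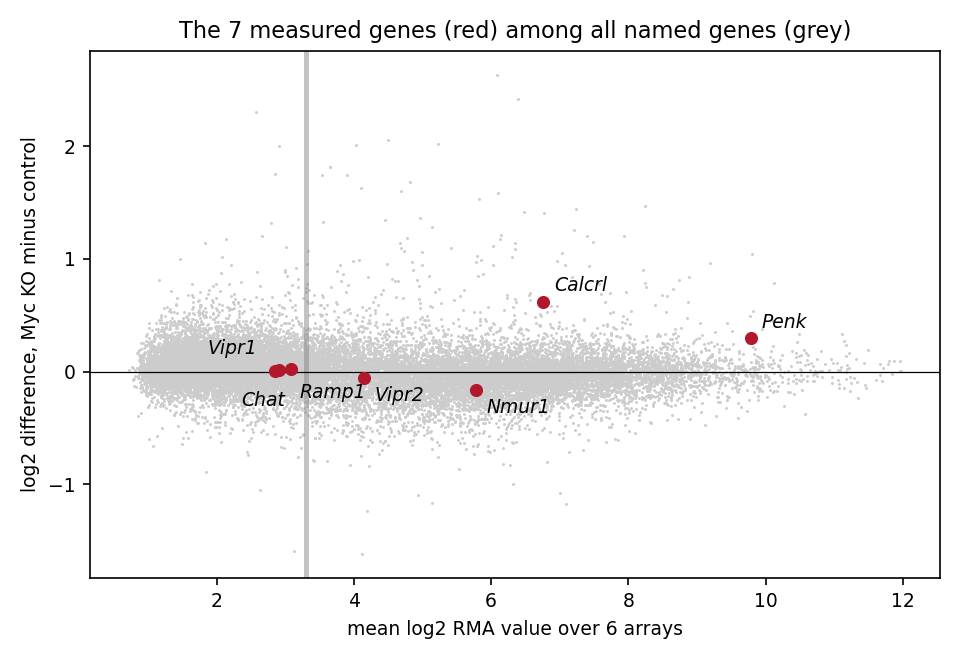
Mean log2 RMA value over 6 arrays (horizontal axis) against the log2 difference, arrays labelled Myc knockout minus control (vertical axis), for 23185 named genes (grey points) and 7 neural receptor and neuropeptide genes (red); the grey band spans the array medians. Calcrl is at 0.62 and Penk at 0.30, while Vipr1, Ramp1 and Chat lie at its dim end, left of the array medians.

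Chat encodes choline acetyltransferase, which makes acetylcholine. It read 2.94, 2.91 and 2.91 in the arrays labelled Myc knockout, against 2.91, 2.91 and 2.91 in control arrays, and 5 of the 6 arrays held the identical deposited value of 2.90506. The level lay below the array medians, so these arrays cannot show a lack of change in Chat. The genes of the vesicular acetylcholine transporter, Slc18a3, and of the high-affinity choline transporter, Slc5a7, were below the array medians as well. Ache, the gene of the acetylcholine-degrading enzyme, read 2.73 on all 3 arrays labelled Myc knockout, against 3.0, 2.97 and 2.97 in control arrays, a difference at a level where no fold can be read. Of 22 cholinergic genes, 0 passed in either direction and an unadjusted p under 0.05 was found for 0 higher and 2 lower genes, where the background was 6.97% higher and 7.91% lower; the choline transporter genes Slc44a1 and Slc44a2 were well above the medians and differed by -0.082 ± 0.073 and 0.0032 ± 0.075. The muscarinic receptor gene Chrm4 differed by -0.23 ± 0.095, with groups that overlapped near the array medians. The nicotinic receptor gene Chrna7 differed by 0.17 ± 0.21. Chrna7 read 4.01 in replicate 1 of the arrays labelled Myc knockout, against 3.21 to 3.37 on the other 5 arrays.

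The wider set of neural receptors and catecholamine genes was mostly dim. Of 28 further neuropeptide receptor genes, 6 lay at or above the median of the array medians, 0 passed in either direction, and an unadjusted p under 0.05 was found for 1 higher and 1 lower gene (background 6.97% and 7.91%). The higher one was Sstr2 and the lower one Cckar, both below the array medians on all 6 arrays. Brighter genes of the list named by rule were Galr1 (log2 difference 0.066 ± 0.074), Oprd1 (0.051 ± 0.089), Crcp (-0.17 ± 0.094), whose product accompanies the CGRP receptor, and Ogfr (-0.076 ± 0.063), an opioid growth factor receptor gene. Of 24 adrenergic and dopamine genes listed, 16 were measured and named; the others, β-adrenergic receptor genes among them, were not paired with probe sets by that table and are not analysed here. Of the 16, 13 lay below the median of the array medians and 0 had an unadjusted p under 0.05. Drd5, Ddc and Slc6a3, for a dopamine receptor, a synthesis enzyme and a transporter, differed by 0.0097 ± 0.086, -0.038 ± 0.063 and -0.0054 ± 0.16. The adrenergic receptor genes among the 16 were Adra1b and Adra2c, which differed by -0.0011 ± 0.097 and 0.062 ± 0.099. Both lay below the array medians on all 6 arrays.

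Some other peptide genes were bright in this line, and some of these differed more than Penk. Npy, the gene of neuropeptide Y, read 8.10, 8.0 and 7.87 in the arrays labelled Myc knockout, against 7.50, 7.47 and 7.43 in control arrays, a 1.43-fold difference (limma's adjusted p = 0.0525). Its groups were apart by more than either group's range, as for Calcrl. Cck, the cholecystokinin gene, read 5.99, 6.97 and 6.45 in the arrays labelled Myc knockout, against 7.54, 7.52 and 7.59 in control arrays. The 3 arrays labelled Myc knockout were all lower and far more scattered than the control arrays, and the log2 difference was -1.08 ± 0.23 (limma's adjusted p = 0.115). Grp, the gene of gastrin-releasing peptide, read 8.36, 8.47 and 8.71 in the arrays labelled Myc knockout, against 8.99, 8.99 and 8.83 in control arrays, a log2 difference of -0.42 ± 0.10 (limma's adjusted p = 0.154). Iapp, the gene of the pancreatic hormone amylin, was looked up after its values were seen. It read 10.62, 10.73 and 10.62 in the arrays labelled Myc knockout, against 10.62, 10.59 and 10.46 in control arrays, and the groups overlapped (0.10 ± 0.069). Sst, the somatostatin gene, near the array medians, differed by 0.14 ± 0.068. Of 21 ligand genes, 15 lay below the median of the array medians, where a value says little about the RNA. The median difference of the 21 was 0.067, against 0.0077 over all genes. In this list 0 passed, and an unadjusted p under 0.05 was found for 3 higher and 2 lower genes (background 6.97% and 7.91%). The other higher ones, Adcyap1 and Nts, lay below the array medians, at 2.24 and 1.90 in the arrays labelled Myc knockout, against 2.06 and 1.69 in control arrays. Beside this, 0 of 15 measured neuron and neuroendocrine markers passed (background 0.254% higher and 0.198% lower). An unadjusted p under 0.05 was found for 0 higher and 1 lower of them (background 6.97% and 7.91%). The lower one was Nefl, at 1.54 ± 0.15 in the arrays labelled Myc knockout and 1.93 ± 0.22 in control arrays. Its groups overlapped, below the array medians. The mean level of the 15 was 2.91 to 2.99 in the arrays labelled Myc knockout and 2.90 to 3.01 in control arrays. Of the 15, 12 lay below the median of the array medians. The markers above it were Uchl1 (-0.12 ± 0.079), Syp (-0.047 ± 0.069) and Rbfox3 (0.048 ± 0.071), and their part in the ligand values was not tested.

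**Figure D4:**
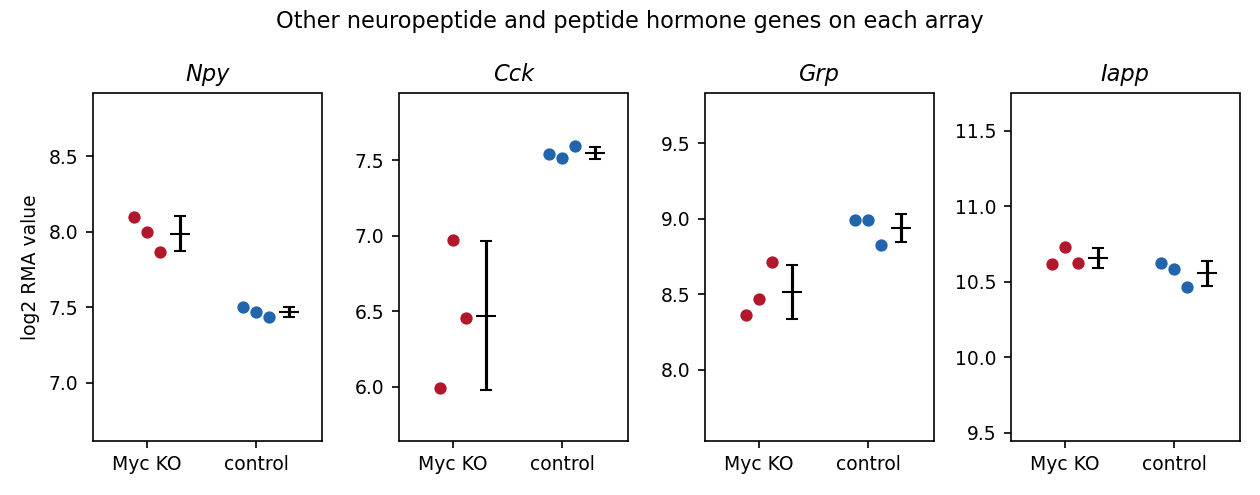
Log2 RMA value (vertical axis) of Npy, Cck, Grp and Iapp on each of 3 arrays labelled Myc knockout (red) and 3 control arrays (blue), with group mean and SD in black and panels of the same height. Npy is higher and Cck and Grp lower on every array labelled Myc knockout than on any control array, and the groups of Iapp overlap.

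Peptide precursors need cutting and trimming before they act. Furin, a protease gene of the secretory pathway, read 10.53, 10.56 and 10.68 in the arrays labelled Myc knockout, against 10.38, 10.31 and 10.28 in control arrays, and Cpd, a carboxypeptidase gene of that pathway, averaged 8.0 ± 0.15 in the arrays labelled Myc knockout and 7.62 ± 0.084 in control arrays. Both sets of arrays were apart without passing (limma's adjusted p = 0.155 and 0.153). Pcsk1, whose product cuts proenkephalin in endocrine cells, was below the lower quartiles, Cpe averaged 4.41 ± 0.094 in the arrays labelled Myc knockout and 4.44 ± 0.049 in control arrays, and Pcsk7 differed by -0.038 ± 0.069. Of 15 processing genes measured, 0 passed, and an unadjusted p under 0.05 was found for 2 higher and 0 lower genes, against a background of 6.97% and 7.91%.

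Of 50 genes of G proteins, cAMP and Gq signalling, 0 passed in either direction, an unadjusted p under 0.05 was found for 12 lower and 4 higher genes, and 37 had negative differences. The background over all genes was 7.91% lower and 6.97% higher, but 45 of the 50 lay at or above the median of the array medians, and the 11717 named genes at that level were 13.7% lower and 7.78% higher, with 57.9% negative. The median difference was -0.11, against -0.029 for those brighter genes and 0.0077 for all genes; it was -0.072 after cyclic loess and -0.065 without control replicate 1. The groups did not overlap for 16 lower and 4 higher genes, against 18.5% and 10.8% of the brighter genes. Itpr2, an inositol trisphosphate receptor gene that releases calcium, read 8.99, 9.12 and 9.15 in the arrays labelled Myc knockout, against 9.41, 9.45 and 9.57 in control arrays (-0.39 ± 0.074, limma's adjusted p = 0.0968). Adcy6, an adenylyl cyclase gene, differed by -0.37 ± 0.080 (limma's adjusted p = 0.117), and the related Adcy7 by -0.22 ± 0.10. The cyclase genes Adcy3, Adcy4 and Adcy9 were higher instead, at 0.13 ± 0.060, 0.26 ± 0.095 and 0.38 ± 0.15. Of these, Adcy4 lay below the median of the array medians. Rgs1, an inhibitor of G protein signalling, read 9.01, 9.09 and 9.44 in the arrays labelled Myc knockout, against 8.58, 8.47 and 8.63 in control arrays (0.62 ± 0.12, limma's adjusted p = 0.0985). The related Rgs2 differed by 0.33 ± 0.13, with groups that overlapped. Of that family, Rgs10 and Rgs16 went the other way, at -0.54 ± 0.12 and -0.12 ± 0.096 (limma's adjusted p = 0.122 and 0.602). The groups of Rgs10 did not overlap, and those of Rgs16 did. Gnas, for the stimulatory alpha subunit, and Crem, a cAMP-responsive transcription factor gene, differed by -0.069 ± 0.054 and 0.058 ± 0.065, and the phosphodiesterase gene Pde4b lay below the array medians. Gnas, counted among the 16 lower genes without overlap, held the identical deposited value of 4.75167 on all 3 control arrays.

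Markers of cell identity were examined on the same arrays. Among 16 ILC2 markers, Il5 passed as 1.40-fold higher (limma's adjusted p = 0.0386) and 0 passed as lower (background 0.254% and 0.198%). An unadjusted p under 0.05 was found for 4 higher and 4 lower markers. The background was 6.97% and 7.91% of all genes, and 7.78% and 13.7% of the 11717 brighter genes. Il5 passed under 7 of 15 alternatives, with adjusted p from 0.00767 to 0.174, and did not pass after median centring or with any single array left out. Il2ra differed by 0.19 ± 0.059, Gata3 by -0.25 ± 0.066 and Il7r by -0.22 ± 0.076. Of 18 T cell, B cell, myeloid and mast cell markers, 15 lay below the median of the array medians. In this list 0 passed, where the background was 0.254% higher and 0.198% lower. An unadjusted p under 0.05 was found for 0 higher and 2 lower markers (background 6.97% and 7.91%). The groups did not overlap for 2 lower markers, against 10.6% of all genes. The mean level of the 18 was 2.58 to 2.60 in the arrays labelled Myc knockout and 2.58 to 2.69 in control arrays. The 3 brighter ones were Itgam (-0.63 ± 0.10, limma's adjusted p = 0.0767), an integrin gene of myeloid and some lymphoid cells, Cd3g (-0.43 ± 0.13) and Cd8a (0.20 ± 0.15). Their part in the values above was not tested.

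The genes whose 6 values ran most like those of each brighter member were found by Pearson's r over the 6 arrays among 11716 other named genes at or above the same level, as a description without a test, since some of so many genes match any 6 values closely. For Calcrl they were Irak1bp1 (r = 0.997) and Tmem41a (r = 0.993), with log2 differences of 0.41 and 0.17. For Penk they were Krtap14 (r = 0.997) and Asb2 (r = 0.990), with differences of 0.29 and 0.24. For Nmur1 they were B4galt7 (r = 0.990) and C87436 (r = 0.988), and for Vipr2, Bet1l and Klc1 (r = 0.996 and 0.994). A value of r of at least 0.95 was reached by 154 genes for Calcrl, 136 for Penk, 50 for Nmur1 and 47 for Vipr2.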

How the data were processed

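Total RNA of 6 samples of a mouse ILC2 line, 3 labelled Myc knockout and 3 control, was measured on 1-colour Affymetrix arrays, and sample titles gave the groups. The deposited values are log2 intensities from RMA by the authors, per the submitters' processing notes, which also name limma 3.14.4. RMA brings all arrays to 1 distribution of intensities, which hides a change common to all transcripts, and a probe set's value is not comparable with another's. The version of the array, its probe sets and the build were not given in the sources used here.

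Of 25206 probe sets, an annotation table paired 23185 with 1 symbol each, 0 with several, and 2021 with none. Those 23185 were tested as genes with no filter on level in limma 3.58.1 (R 4.3.3; lmFit and eBayes, no trend, not robust), arrays labelled Myc knockout minus control, with Benjamini-Hochberg adjustment over all of them and a threshold of 0.05; tests were two-sided. The same procedure was tested on simulated data. Errors are SD of 3 arrays or limma's SE of a difference, and the number of arrays limits the precision. Promoter windows came from a RefSeq table of build GRCm38.p6. Exact permutation tests used scipy 1.17.1, and figures matplotlib 3.10.9.

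The members and the 9 further gene lists were chosen with earlier results of these data known. The rule named all measured members, Myc, a fixed set of partner genes, and from each list up to 2 genes higher and 2 lower with the smallest p among those at or above the median of the array medians (3.30). Examples beyond it were chosen after values were seen. Among receptor, ligand and transporter genes they were Iapp, Slc5a7, Nmur2, Nms, Adcyap1r1, Adcyap1, Nts, Adra1b, Adra2c, Sstr2, Cckar and the opioid receptor and precursor genes. Among signalling genes and markers they were Rgs10, Rgs16, Adcy3, Adcy4, Adcy7, Adcy9, Nefl, Il13, Il17rb, Ptgdr2 and Thy1. Alternatives changed the scaling (median centring, cyclic loess), the prior variance (intensity trend, robust), the weights of arrays, the genes tested (filters on dim genes, all probe sets) and the samples (replicate block, each array left out).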

Additional observations from a re-analysis of the deposited data

How the results depend on the processing

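The count of 59 genes higher and 46 lower over all genes was 162 and 208 with a prior variance that follows intensity, 204 and 345 with genes below the median level left out, and 92 and 100 with those below the lower quartile level left out. With single arrays left out it was 0 to 2 higher and 0 to 1 lower. Same-numbered arrays of the 2 groups did not deviate together (r over genes of -0.0696, -0.0124 and -0.0175 for replicates 1, 2 and 3), so the numbers were not taken as pairs; with the replicate block 0 genes were called higher and 0 lower. Of the 7 members, 0 were called higher in the reported fit, against 2 with the prior variance that follows intensity (Calcrl 0.62, adjusted p = 0.0221, and Penk 0.30, adjusted p = 0.0443), 1 after cyclic loess (Calcrl 0.66, adjusted p = 0.0362), 1 without genes below the median level (Calcrl 0.62, adjusted p = 0.0158) and 1 without those below the lower quartile level (Calcrl 0.62, adjusted p = 0.0349); 0 were called lower under any alternative. Calcrl and Penk had positive differences under all 15 alternatives and Nmur1 a negative one under all 15; with single arrays left out they ranged over 0.58 to 0.71, 0.24 to 0.34 and -0.23 to -0.091. The signs of the other 4 are not fixed. Ramp1 was -0.0079 with array weights, -0.00044 with median centring and -0.12 to 0.13 with single arrays left out. Vipr1 was -0.020 with median centring, -0.020 after cyclic loess and -0.044 to 0.056 with single arrays left out. Chat was -0.013 with median centring and -0.012 after cyclic loess, and Vipr2 ranged from -0.10 to 0.017 with single arrays left out. Vipr1, Ramp1 and Chat are below the median level and have no value under that filter. Of 750 list counts and medians under alternatives, 107 moved. Adjusted p over all 15 alternatives was 0.0158 to 0.199 for Calcrl and 0.0443 to 0.282 for Penk. Npy was called under 4 alternatives (adjusted p 0.0158 to 0.204) and Cck under 1 (0.0435 to 0.302). Signal over background limits Vipr1, Ramp1 and Chat, which lie below the median of the array medians.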

Other observations

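Identical deposited values recurred, mostly among the dim genes. Chat held 2.90506 on 5 of 6 arrays, and 6 other named genes held that same value on at least 5 arrays. Nmur2 and Calcb, genes of different families, both held 2.47467 on 5 of 6 arrays, a value that 7 genes other than Nmur2 held as often. Over the table, 4034 probe sets, 16.0%, held 1 value on 3 or more arrays, and 28.1% of those lay at or above the median of the array medians. A spread of 0 within such a group, as for Chat and Gnas in control arrays and Ache in the arrays labelled Myc knockout, is no measure of replicate error.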
